A study of Mus musculus with 12 samples.

Results

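The nuclear factor I (NFI) family of transcription factors has 4 genes in the mouse, Nfia, Nfib, Nfic and Nfix, and the accessibility of their chromatin was described here during hepatocyte reprogramming of fibroblasts. The windows were those of the deposited peak table that overlapped 1 of the 4 gene bodies or the 50 kb on either side of it (GENCODE M21, mm10). This gave 183 of the 176680 windows in the table, of which 46 lay at Nfia, 65 at Nfib, 29 at Nfic and 43 at Nfix. Of the windows in the whole table, 176672 were 201 bases wide.

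Primary mouse embryonic fibroblasts (MEFs) came from wild-type C57BL/6N embryos at E13.5 and were transduced with lentivirus. The series holds 12 ATAC-seq libraries in 4 groups of 3 replicates: MEF (rtTA overexpression), Prox1_OE (Prox1 and rtTA), 4in1_GFP_OE (4in1, GFP and rtTA) and 4in1_Prox1_OE (4in1, Prox1 and rtTA). All groups carried rtTA, the transactivator that switches on the other transgenes with doxycycline (2 µg/ml), and all were collected on day 2. The 4in1 cassette drives reprogramming towards induced hepatocytes, GFP is the control protein, and the Prox1 transgene is a FLAG-tagged mouse Prox1, a homeodomain transcription factor of hepatocytes and lymphatic endothelium.

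The comparison asked how Prox1 changed accessibility when it was added to 4in1. The table holds 1 mean per window for 4in1_GFP_OE and 1 for 4in1_Prox1_OE, each the authors' mean over 3 libraries and stored as log2 of normalized reads. A difference below is the log2 mean with Prox1 minus the log2 mean with GFP, so that negative values mean less accessible chromatin with Prox1. Values of single libraries were not used, so the depth and the spread between replicates are not known here. No difference was set against that spread, and no test was made. A difference of 2-fold in the means (1 on the log2 scale) served as a mark of size only. MEF and Prox1_OE libraries were not analysed here. Cultures were bulk and transduced, so fewer cells with an accessible site and less accessibility per cell cannot be told apart.

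NFI proteins bind DNA as dimers, and each partner contacts a TTGGC sequence, so that a full site reads TTGGC and, 5 bases on, its reverse complement GCCAA. All members share this DNA-binding domain and can pair with each other, and cells of many tissues, fibroblasts among them, express several of them. Nfia is known for the switch of neural progenitors to glia, Nfib for lung maturation and hair follicle stem cells, Nfic for tooth root formation, and Nfix for the switch from embryonic to fetal muscle.

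Of 10 fibroblast marker genes, 10 had a window within 1 kb of a start site, with 197 to 784 mean reads with GFP and 128 to 615 with Prox1, and 1 of these promoters was at least 2-fold lower with Prox1. Among all promoter windows of the table, 10.3% were 2-fold lower and 3.88% were 2-fold higher, which is the background for the marker counts here. Among 8 hepatocyte markers, 1 had such a promoter window (F2, the prothrombin gene, with 39.3 mean reads with GFP and 42.3 with Prox1). Promoter windows were present for 4 of 4 endothelial markers, of which 2 were at least 2-fold lower, for 4 of 4 epithelial markers, of which 1 was at least 2-fold higher, for 1 of 5 blood markers, 1 of 3 skeletal muscle markers and 3 of 3 neural markers. The part of other cell types in the values below was not tested.

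Across the whole table, the median difference was −0.42, and total normalized reads with Prox1 were 0.751 of those with GFP. Windows at least 2-fold lower made up 24.4% of the table and windows at least 2-fold higher 8.33%. After centring on that median, the shares became 8.64% lower and 13.4% higher. DiffBind was run as its vignette describes, with no normalization setting named, so values are on the deposited scale unless called relative to the median of all windows. Centring raises every difference by the same amount, so a difference between −0.42 and 0 turns positive.

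Sequences are shown for the strongest promoter windows and for the intron windows with the most negative differences, so that their CpG content can be compared. The first 3 are the windows with the highest mean level within 1 kb of a start site of Nfia, Nfib and Nfic, all on the plus strand of mm10, with CG dinucleotides (CpG) in capitals.
Nfia promoter window, chr4:97772178-97772378: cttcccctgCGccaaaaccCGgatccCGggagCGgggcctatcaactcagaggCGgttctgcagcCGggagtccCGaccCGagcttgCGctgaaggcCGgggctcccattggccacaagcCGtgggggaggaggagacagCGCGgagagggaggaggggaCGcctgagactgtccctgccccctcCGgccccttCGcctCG
Nfib promoter window, chr4:82506390-82506590: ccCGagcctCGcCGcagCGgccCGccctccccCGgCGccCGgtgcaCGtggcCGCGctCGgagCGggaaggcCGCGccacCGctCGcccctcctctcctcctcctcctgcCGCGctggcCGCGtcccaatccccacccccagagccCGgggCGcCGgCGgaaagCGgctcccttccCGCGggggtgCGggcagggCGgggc
Nfic promoter window, chr10:81430333-81430533: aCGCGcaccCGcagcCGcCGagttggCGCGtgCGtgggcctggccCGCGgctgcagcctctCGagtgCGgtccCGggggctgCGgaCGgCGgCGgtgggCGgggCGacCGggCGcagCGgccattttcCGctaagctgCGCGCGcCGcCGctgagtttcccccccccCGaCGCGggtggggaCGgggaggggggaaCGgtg
They hold 17, 30 and 33 CpG. The next 4 had the most negative difference in each locus among windows at or above the median level of the table (105 reads), and all lie in introns.
Nfia intron window, chr4:97974159-97974359: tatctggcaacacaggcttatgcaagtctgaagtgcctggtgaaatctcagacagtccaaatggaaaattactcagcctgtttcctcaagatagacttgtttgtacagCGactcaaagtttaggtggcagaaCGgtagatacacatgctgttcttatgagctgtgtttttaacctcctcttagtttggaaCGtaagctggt
Nfib intron window, chr4:82609377-82609577: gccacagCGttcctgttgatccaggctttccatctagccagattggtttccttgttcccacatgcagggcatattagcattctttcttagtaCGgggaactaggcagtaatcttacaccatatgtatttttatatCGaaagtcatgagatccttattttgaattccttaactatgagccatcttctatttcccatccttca
Nfic intron window, chr10:81452843-81453043: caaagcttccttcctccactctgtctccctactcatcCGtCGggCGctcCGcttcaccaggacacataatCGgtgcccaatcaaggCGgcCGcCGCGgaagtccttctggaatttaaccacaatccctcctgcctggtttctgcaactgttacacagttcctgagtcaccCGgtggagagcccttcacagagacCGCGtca
Nfix intron window, chr8:84712525-84712725: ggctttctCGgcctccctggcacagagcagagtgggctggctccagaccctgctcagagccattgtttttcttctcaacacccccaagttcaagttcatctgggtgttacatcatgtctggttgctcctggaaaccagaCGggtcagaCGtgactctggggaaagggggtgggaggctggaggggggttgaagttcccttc
These hold 3, 3, 12 and 3 CpG, and the Nfic window, at −0.86, was not 2-fold lower. The median was 2 CpG over all windows and 8 over the 27533 promoter windows of the table.

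The loci split by gene. Nfia and Nfib had median differences of −0.67 (quartiles −1.17 and −0.22) and −0.69 (quartiles −1.03 and −0.14), both below the median of all windows. At Nfic the median was −0.01 (quartiles −0.14 and 0.32), and at Nfix it was −0.29 (quartiles −0.62 and −0.10). Relative to the median of all windows, Nfia and Nfib stayed lower (−0.26 and −0.28), while Nfic and Nfix turned higher (0.41 and 0.13). Relative to windows of the same level, GC content and promoter class, Nfia, Nfib and Nfix lay close together (−0.08, −0.09 and −0.02). Nfic alone stood apart on that scale, at 0.25.

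In counts, 36 of the 183 windows (19.7%, against 24.4% of the table) were at least 2-fold lower with Prox1 and 10 (5.46%, against 8.33%) were at least 2-fold higher. Of the 36, Nfib held 20 of its 65 windows (30.8%), Nfia 14 of its 46 (30.4%), Nfix 2 of its 43 and Nfic none of its 29. The 10 higher windows were 4 at Nfia, 3 at Nfib, 2 at Nfic and 1 at Nfix. After centring, 13 windows were lower (7.10%, against 8.64%) and 20 higher (10.9%, against 13.4%). The 13 were 8 at Nfia (17.4%) and 5 at Nfib (7.69%), so the 2-fold lower share at Nfib no longer exceeded the table's. The 20 were 6 at Nfia, 7 at Nfib, 5 at Nfic and 2 at Nfix. Neither share of the family exceeded the table's background on either scale. The family's median of −0.30 became 0.11 relative to all windows.

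**Figure D1:**
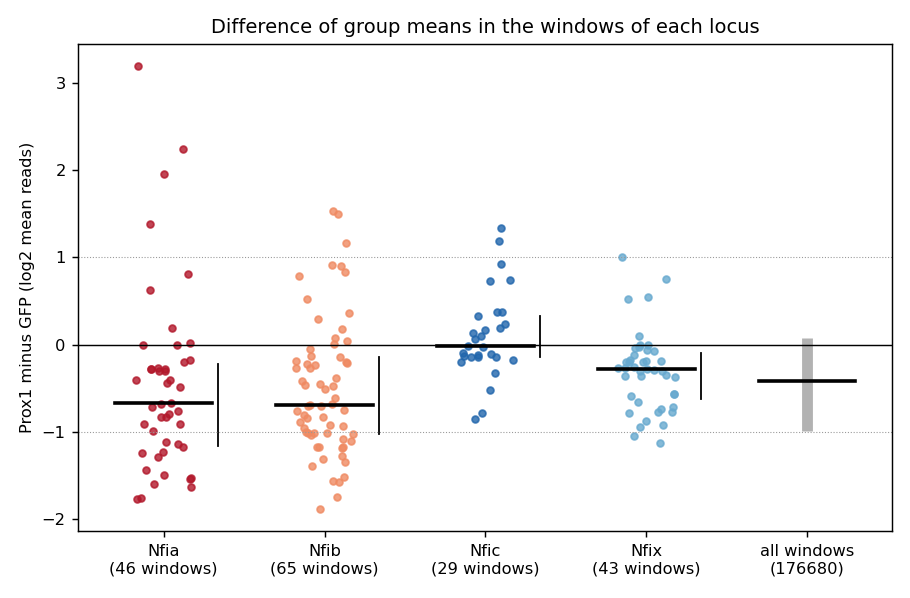
Difference of the group means (4in1_Prox1_OE minus 4in1_GFP_OE, log2 normalized reads) in every window of the 4 loci. Each point is 1 window, horizontal bars are medians, vertical lines span the quartiles (for all 176680 windows, the grey bar), and dotted lines mark 2-fold. Points of Nfia and Nfib reach below −1.5, those of Nfic stop at −0.86 and those of Nfix at −1.13.

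Among the 5151 protein-coding genes with at least 20 windows in the same span, 12.6% had a lower median than Nfia and 11.4% a lower one than Nfib, against 94.5% for Nfic and 58.9% for Nfix. The 4 genes differ in setting as well. Nfia (chr4:97772734-98118874, plus strand) and Nfib (chr4:82290173-82705750, minus strand) are 346 and 416 kb long, with 10.3 and 12.6 windows per 100 kb of the span. Nfic (chr10:81396186-81455635, minus strand) is 59.5 kb long, with 18.2 windows per 100 kb and 12 other protein-coding genes in the span. Nfix (chr8:84699876-84800344, minus strand) is 100.5 kb long, with 21.4 windows per 100 kb and 9 other protein-coding genes. Summed over the windows of a locus, mean reads with Prox1 were 0.693 of those with GFP at Nfia, 0.713 at Nfib, 0.998 at Nfic and 0.801 at Nfix, against 0.751 over the table.

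Promoter windows of the family had differences closer to 0 than its intron windows, as they did over the whole table, where the median was −0.22 at promoters and −0.50 elsewhere. There were 11 windows within 1 kb of a start site of an Nfi gene, and their differences ran from −0.78 to 0.01 with a median of −0.27. None was 2-fold lower or higher. Relative to all windows the median of the 11 was 0.15, and relative to windows of the same level, GC content and promoter class it was −0.08, so the direction of the promoters as a group turns with the reference.

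The strongest windows at the main start sites of Nfib, Nfix and Nfic differed by 0.12 or less. Nfib, at its main start (10 transcripts), had 637 mean reads with GFP and 641 with Prox1 (difference 0.01), and a second window within 1 kb had 270 and 233 (−0.21). Nfix, at its main start, had 555 and 546 (−0.02). The main start of Nfic had 411 and 378 (−0.12), and a start of Nfic further upstream had 536 and 500 (−0.10). At Nfia, the most upstream start had 738 and 612 (−0.27), with a second window at 401 and 295 (−0.44), and the main start had 259 and 196 (−0.40). The window at the main start of Nfia is also within 1 kb of a start of E130114P18Rik, a gene on the opposite strand, so its reads cannot be assigned to either.

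The lowest promoter values came from internal starts of Nfix and Nfic. Nfix has a second start about 26 kb into the gene, and its window (chr8:84773922-84774122) had 380 mean reads with GFP and 221 with Prox1, a difference of −0.78 (1.72-fold lower), while a neighbouring window there had 314 and 242 (−0.37). The internal start of Nfic (chr10:81407629-81407829) had 494 and 345 (−0.52, 1.43-fold lower). Relative to the median of all windows, these internal starts stood at −0.37 and −0.10, whereas the main starts of the same genes stood at 0.39 and 0.30.

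**Figure D2:**
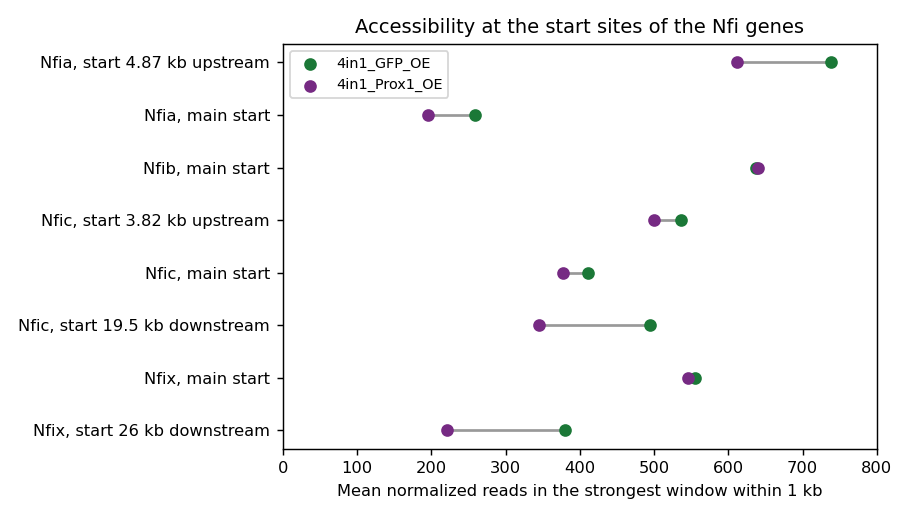
Mean normalized reads in 4in1_GFP_OE (green) and 4in1_Prox1_OE (purple) in the strongest window within 1 kb of each start site of the Nfi genes that has a window. The pairs nearly coincide at the main starts of Nfib and Nfix and are widest apart at the internal start of Nfix (380 and 221).

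Most of the 2-fold lower windows lay in introns. Introns held 109 of the 183 windows, with a median of −0.66 (−0.08 relative to windows of the same level, GC content and promoter class), and 30 of the 36 windows that were at least 2-fold lower. They were 18 of 54 intron windows at Nfib, 11 of 33 at Nfia, 1 of 15 at Nfix and 0 of 7 at Nfic. The 6 others lay in the 50 kb beside the genes. They were 25.0% of the 24 windows there, near the 27.5% of the intron windows. None of the 44 windows at promoters, own or of another gene, was 2-fold lower, against 10.3% of all promoter windows of the table. Outside promoters 36 of 139 windows (25.9%) were 2-fold lower, against 27.0% of the 149147 windows of the table outside promoters.

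The 6 windows at least 3-fold lower (3.28%, against 4.42% of the table) were 4 at Nfia (8.70% of its windows) and 2 at Nfib (3.08%), all in introns. At Nfib, the window chr4:82609377-82609577 had 240 mean reads with GFP and 64.9 with Prox1 (−1.89, 3.70-fold lower), and it lies 103.7 kb upstream of the main start, in the intron of a long transcript. A second one, chr4:82412171-82412371, had 232 and 69.2 (−1.74) and lies 93.5 kb downstream of the main start. At Nfia, chr4:98061239-98061439 had 160 and 47.0 (−1.76), chr4:97974159-97974359 had 196 and 58.2 (−1.76), chr4:97950362-97950562 had 91.5 and 29.5 (−1.63), and chr4:97825946-97826146 had 262 and 86.6 (−1.59). Relative to the median of all windows, these 6 lay between −1.47 and −1.18.

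Runs of negative windows occurred at all 4 loci, and 72.3% of all windows were below 0. The longest run below 0 was 15 windows at Nfia (99.9 kb), 15 at Nfix (55.8 kb), 13 at Nfib (67.3 kb) and 4 at Nfic (7.89 kb). A second run of 15 windows at Nfia (chr4:97860510-98006059) covered a wider stretch. At Nfia, 9 in a row, over 56.1 kb, were below the median of all windows (chr4:97794948-97851021, in introns downstream of the main start). At Nfib, 10 in a row over 45.0 kb (chr4:82408629-82453627) were below that median. The longest run below that median was 2 windows at Nfix and 1 at Nfic. Within the runs the size varied, and the Nfia run below that median held a difference of −0.49 next to the −1.59 above.

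**Figure D3:**
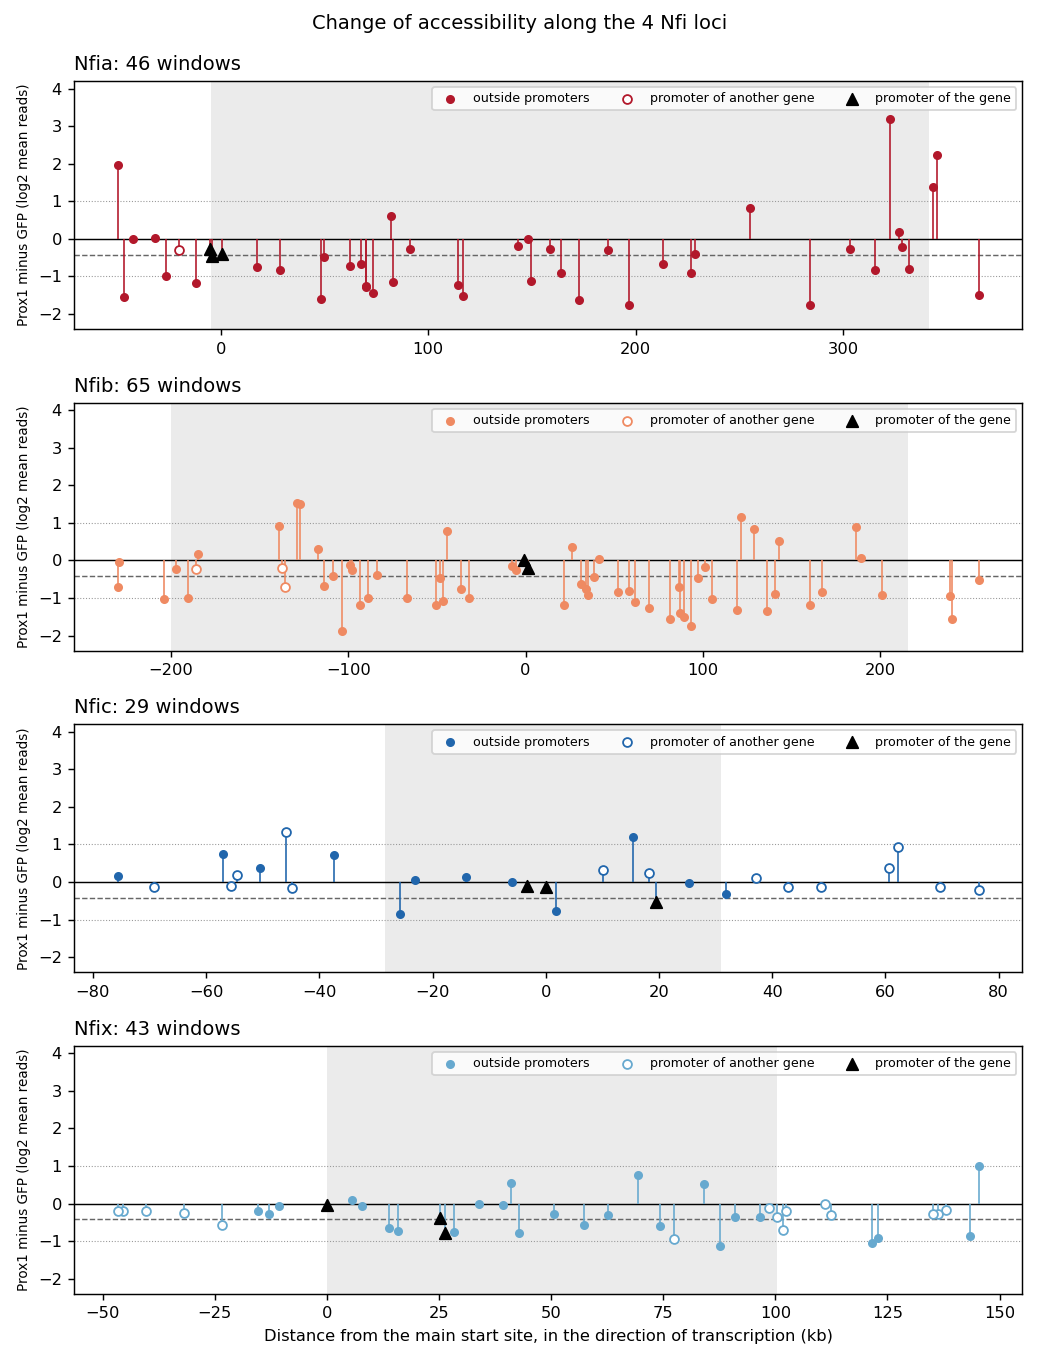
Difference of the group means in each window against its distance from the main start site (kb, in the direction of transcription) at the 4 loci. Grey marks the gene body, the dashed line the median of all windows (−0.42), dotted lines 2-fold, black triangles promoters of the gene and open circles promoters of other genes. Below-zero stems fill the introns of Nfia and Nfib, and the triangles of all 4 genes sit between −0.78 and 0.01.

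By distance, the 3 windows of Nfia within 10 kb of its main start had a median of −0.40, the 11 from 10 to 50 kb −0.76, and the 32 further away −0.69. For Nfib the medians were −0.17 (4 windows), −0.68 (12) and −0.70 (49). Nfix went from −0.02 (3 windows) to −0.26 (17) and −0.30 (23). Nfic ran the other way, from −0.11 (4 windows) to 0.06 (15) and 0.18 (10). All Nfic windows beyond 50 kb lay outside the gene, most of them at promoters of other genes. Distance and kind of window thus change together there. The strongest window at Nfib by mean level was no promoter by the 1 kb rule. It lay 7.5 kb upstream of the main start (chr4:82513178-82513378), with 714 and 649 mean reads (−0.14), 28 CpG and a GC content of 80.1%.

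At or above the table's median level, no window of Nfia was above 0.19 (113 and 129 mean reads), and its next highest was at 0.02 (297 and 301). The highest of Nfib had 64.5 and 186 (1.53), followed by 141 and 242 (0.78). The lowest of Nfic at that level had 408 and 225 mean reads (−0.86) and 400 and 232 (−0.78), both in introns. Its highest had 152 and 346 (1.19, in an intron) and 73.7 and 186 (1.33). The last of these is at a start of Celf5, an RNA-binding protein gene, and not of Nfic. At Nfix, the lowest at that level was an intron window with 406 and 186 mean reads (−1.13), followed by a window at the start of G430095P16Rik inside the gene with 438 and 228 (−0.94). The other 2-fold lower window of Nfix, at a lower level in the flank, had a difference of −1.05. The highest at or above the median level had 119 and 170 (0.52).

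Promoters of neighbouring genes made up much of the windows at Nfic and Nfix. There were 33 such windows over the 4 loci, 14 of them at Nfic and 15 at Nfix, with a median of −0.19, or 0.23 relative to the median of all windows. The strongest window of each of these loci was one of them, at Hmg20b beside Nfic (875 and 761 mean reads, −0.20) and at Calr, the calreticulin gene, beside Nfix (887 and 773, −0.20).

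The 10 windows at least 2-fold higher with Prox1 included 9 below the median GFP level of the table (122 reads). A choice by the ratio itself favors low values with GFP. Their mean reads with GFP ranged from 6.60 to 152, with a median of 29.9, and with Prox1 from 60.3 to 346, with a median of 107. By comparison, the 36 lower windows ranged from 56.2 to 406 with GFP. The largest value was in an intron near the end of Nfia (chr4:98100045-98100245), with 6.60 and 60.3 mean reads (3.19). The next 2, past the end of the gene, had 30.0 and 78.2 (1.38) and 29.9 and 141 (2.24). These 3 windows spanned 22.8 kb, with 3 others between them that were not 2-fold higher (0.19, −0.20 and −0.80). The fourth at Nfia lay 49.7 kb upstream of the main start, with 22.6 and 88.1 (1.96).

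At Nfib, a pair of neighbours within 1.76 kb, 127.3 and 128.8 kb upstream of the main start, had 27.1 and 76.6 mean reads (2.82-fold higher) and 64.5 and 186 (2.89-fold higher), and another, downstream, had 29.7 and 66.7 (1.17). The 1 at Nfix, in the flank, had 64.5 and 130 (1.01). Of the 10, 5 were among the 25% of windows with the lowest mean level in the table.

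GC content ran with the difference, as it did over the whole table. Of the family's windows under 40% GC, 5 of 12 were 2-fold lower (median −0.76), and from 40 to 50% GC 21 of 70 (30.0%, median −0.71). From 50 to 60% GC it was 10 of 56 (17.9%, median −0.29), and from 60% GC 0 of 45 (median −0.18). The shares in the whole table were 37.2%, 32.4%, 16.3% and 1.73%. Spearman's rho between GC content and difference was 0.35 over the 183 windows and 0.25 over all windows, and within the loci it was 0.17 at Nfia, 0.28 at Nfib, −0.01 at Nfic and −0.02 at Nfix. These are descriptions across windows that share libraries and, within a locus, neighbours.

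**Figure D4:**
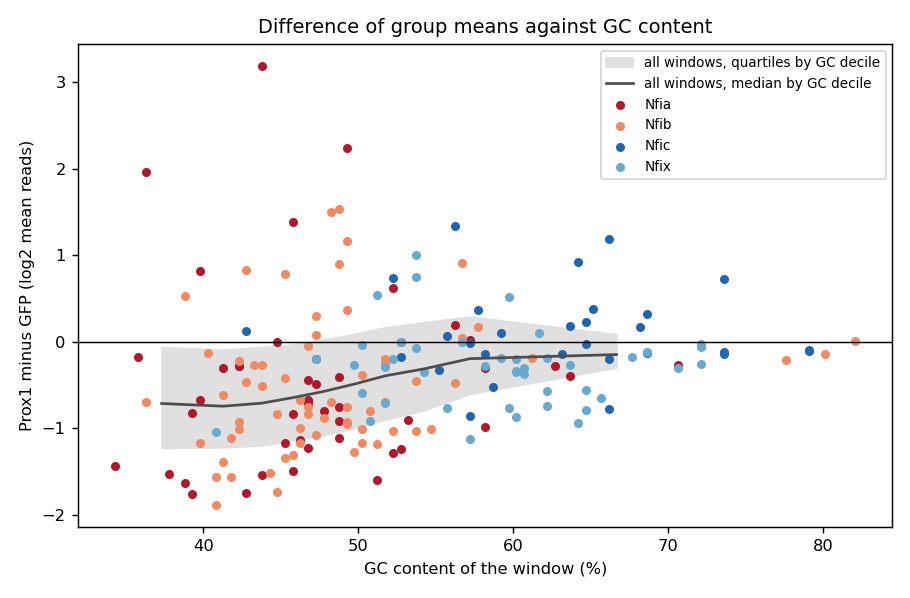
Difference of the group means against the GC content of each window (%), colored by locus. The line and band are the median and quartiles of all windows by deciles of GC content. Windows of Nfia and Nfib lie mostly at 40 to 50% GC, and no window of the 4 loci above 60% GC is 2-fold lower.

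Set against windows of the same level, GC content and promoter class, all 4 loci lay closer to 0 than relative to the median of all windows. Each window was compared with the median of its class by deciles of mean level and of GC content. The median of these relative differences was −0.08 at Nfia, −0.09 at Nfib, 0.25 at Nfic and −0.02 at Nfix. Relative to the median of all windows the same medians were −0.26, −0.28, 0.41 and 0.13. Nfic stayed above windows of its class, and Nfix changed sign.

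The family's own motif was searched as TTGGC followed after 5 bases by GCC, on both strands, which is a full site with the last bases free. There were 4 windows with it, 1 per locus, and they are shown because a site for the family lies within its own loci. The fixed letters are in capitals and 8 bases are given on either side.
Nfia, chr4:97772278-97772306, plus strand: ggctcccaTTGGCcacaaGCCgtggggga
Nfib, chr4:82447378-82447406, minus strand: ctcaggggTTGGCtgggaGCCccattgag
Nfic, chr10:81433046-81433074, plus strand: atagtgtaTTGGCtgaggGCCttctgaca
Nfix, chr8:84772102-84772130, plus strand: tgcgcagcTTGGCcaacaGCCgggatgcc
A match is only a run of letters. Over the whole table, 1.51% of windows hold the motif.

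The Nfia match lies in its strongest window, at the most upstream start (738 and 612 mean reads, −0.27). At Nfib it lies in an intron window with 364 and 209 mean reads (−0.80). At Nfic the intron window had 594 and 590 (−0.01), and at Nfix the window, which overlaps an exon, had 185 and 109 (−0.77). None of the 4 was 2-fold lower or higher, against 21.3% and 12.1% of all windows with the motif. Across the table the 2661 windows with the motif had a median of −0.36, or 0.05 relative to all windows and 0.01 relative to windows of the same level, GC content and promoter class. The 119 windows with the fully palindromic site, none of them in the 4 loci, had a median of −0.13, or 0.28 relative to the median of all windows and also 0.28 relative to windows of the same level, GC content and promoter class.

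Motifs of other factors were unevenly spread over the loci. The AP-1 motif TGANTCA, bound by Fos and Jun proteins, was in 33 of the 183 windows (18.03%, against 28.8% of the table), with a median difference of −0.76 (−0.82 over all windows with the motif), and 10 of them (30.3%, against 39.8% of all windows with it) were 2-fold lower. The TEAD motif GGAATG, read by partners of the YAP coactivator, was in 29 (15.8%, against 20.1%), with a median of −0.77 (−0.64 over all windows with it). Of these, 11 (37.9%, against 32.5%) were 2-fold lower and 4 (13.8%, against 7.78%) were 2-fold higher. At Nfia and Nfib, the 44 windows with 1 or both motifs had a median of −0.83, and the 67 with neither −0.51. In these, 18 (40.9%) and 16 (23.9%) were 2-fold lower, against 35.9% and 15.6% of the windows of the table with and without these motifs. At Nfic and Nfix, 12 windows had 1 of them, with a median of −0.40 (0.01 relative to the median of all windows) and none 2-fold lower. Some windows hold both motifs, so the groups are not separate.

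The CTCF motif, of the factor that marks domain boundaries, was in 8 windows, 3 at Nfic and 5 at Nfix, with a median of −0.20, against −0.19 for that motif over the table, where 2.23% of windows hold it. Relative to the median of all windows these medians were 0.22 and 0.23. The PROX1 motif, held by 1.27% of the table's windows, was in 2, 1 at Nfib with a difference of −1.18 and 1 at Nfic with 0.06. Over the table, the 2250 windows with it had a median of −0.70 (−0.29 relative to all windows), and 36.0% of them were 2-fold lower. The FOXA motif TGTTTAC was in 2 windows (1.09%, against 2.65% of the table). The GATA motif AGATAA was in 9 (4.92%, against 6.72%). The HNF4 motif CAAAGTCCA, with at most 1 mismatch, was in 10 (5.46%, against 6.55%). The HNF1 motif was in 0 windows of the family and 41 of the table. A missing match says only that these letters are not in the window.

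Genes that NFI proteins are linked to in glia, muscle, hair follicle and fibroblasts were read from a list of 15. All 15 had a promoter window, of which 2 (13.3%) were 2-fold lower, none was 2-fold higher and 13 were below 0. The list lay near the background of all promoter windows, with 10.3% lower, 3.88% higher and 76.1% below 0. Its median was −0.37, against −0.22 for all promoter windows and −0.42 for all windows. The 2 lower ones were Fabp7, a fatty acid-binding protein of radial glia, with 228 and 85.9 mean reads (−1.41), and Aqp4, the water channel of astrocytes, with 254 and 122 (−1.05). Gfap, the intermediate filament of astrocytes, had 366 and 225 (−0.70) and was not 2-fold lower. The 2 promoters not below 0 were those of Mmd2 (0.04) and Nfatc4 (0.0023). Over their whole spans, Fabp7, Aqp4 and Gfap had medians of 0.17, −0.23 and −0.24, all above the −0.42 of all windows. In the spans of all 15 genes 60 of 241 windows (24.9%) were 2-fold lower and 11 (4.56%) were 2-fold higher, close to the 24.4% lower and below the 8.33% higher of the table.

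By the quartiles of the difference and the median level, the genes most like Nfia were Nmnat2 and Cd47, with distances of 0.05 and 0.06 (root of the summed squared differences, log2 units, over 5131 candidate genes). For Nfib they were Trabd2b and Slc38a6 (both 0.05). Nfix was nearest to Ccdc136 (0.04) and Mex3a (0.06). Nfic had no gene as near, with Prss57 at 0.18 and Hcn2 at 0.24. Likeness here rests on 2 group means per window.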

How the data were processed

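ATAC-seq reads are, per the study's methods, trimmed with Trimmomatic, aligned to mm10 with Bowtie2, corrected for Tn5 insertion bias and counted in consensus windows with DiffBind 3.4.11. The peak caller is MACS2 in the methods and Genrich in the reporting summary, and whether peaks were called per library or pooled is not stated. The authors deposited log2 mean concentrations (normalized reads, with DiffBind run as in its vignette and no scaling named), 1 per group of 3 libraries. They also deposited their own fold changes, p-values, FDR and 2 lists of enriched windows, which are the authors' comparison and were not used.

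Differences of the group means were computed with pandas 2.3.3 and numpy 2.4.6 in Python 3.11.15, motifs were searched in sequence read with pysam 0.24.0, and rank correlations used scipy 1.17.1. Genes came from the comprehensive GENCODE M21 annotation and sequence from GRCm38.p6. All 176680 windows lay within its chromosomes. A promoter window lies within 1 kb of a start site. The sequence of 1 promoter window is not reported here. Motifs were consensus letters searched on both strands, with at most 1 mismatch for PROX1, HNF4 and HNF1. Counts, medians and the motif search were tested on simulated data. The members and lists were chosen with earlier results of these data known. Windows were named by a rule: per locus, the strongest promoter window, the strongest window, the 2 lowest and 2 highest differences at or above the table's median level, and windows with the NFI motif. The 3-fold lower and the 2-fold higher windows, the other start sites, and Fabp7, Aqp4, Gfap, Mmd2 and Nfatc4 were named after their values were seen.

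Alternatives were the fold, the flank, the promoter distance, a filter on the lowest 25% of levels, and 3 centrings. The comparison with windows of the same level, GC content and promoter class was added after the data were seen.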

Additional observations from a re-analysis of the deposited data

How the results depend on the processing

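Only group means were used, so no fit without 1 library was run. No paired analysis was possible because single libraries have no values here.

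The 36 windows at least 2-fold lower became 73 at 1.5-fold (39.9%, against 42.4% of the table), 6 at 3-fold (3.28%, against 4.42%), 13 after centring on the median of all windows or scaling to equal totals (7.10%, against 8.64% and 8.80%), and 20 after centring on promoter windows (10.9%, against 15.3%). Without the 25% of windows of lowest level they were 25 (16.03%, against 26.7%). At Nfib, the share lower was 53.8% at 1.5-fold (against 42.4%), 3.08% at 3-fold (against 4.42%) and 13.8% on promoter windows (against 15.3%). Without the lowest levels, 12 of 46 Nfib windows were lower (against 26.7% of the table). At Nfia the same settings gave 52.2%, 8.70%, 23.9% and 12 of 40 windows. The 10 higher ones became 20 at 1.5-fold (10.9%, against 13.4%), 3 at 3-fold (1.64%, against 4.01%), 20 under the median or equal totals (10.9%, against 13.4% and 13.3%), 16 on promoter windows (8.74%, against 10.7%), 5 without the 25% of windows of lowest level (3.21%, against 4.14%) and 5 of 129 in the gene body alone, where fewer windows are counted (against 8.33% of the table). The family median of −0.30 turned to 0.11 with either the median or equal totals, and to 0.0050 relative to windows of the same level, GC content and promoter class, and it was −0.081 on promoter windows.

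The Nfic median of −0.01 turned to 0.41, 0.40 and 0.21 under these 3 centrings, to 0.025 without the lowest levels, to 0.029 with 100 kb each side, and to 0.25 relative to like windows. The Nfix median turned to 0.13 under the median and equal totals. The Nfi promoters turned from −0.27 to 0.15 on the median. The motif windows moved from −0.36 to −0.47 without the lowest levels and to −0.13 for the palindrome, and turned to 0.054 on the median and 0.0073 relative to like windows. The medians of Nfia and Nfib were negative under every setting run, at −0.26 and −0.28 after centring on the median and −0.083 and −0.087 relative to like windows. The cause was not tested. Centring changes the zero of every window by construction.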
